A study of Mus musculus with 4 samples.

Results

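TRBV12-1 and TRBV12-2, which encode the V beta 5 family of mouse TCRβ chains, and TRBV16, which encodes V beta 11, were followed in TCR SMART-seq libraries of splenic CD4 T cells. A clone was counted as a member when the first V segment listed for it, without its allele, was one of these 3 segments. They are 3 of the 24 TRBV segments found, and 25283 of the 382531 TCRβ clones carried one of them: 6036 clones TRBV12-1, 5719 clones TRBV12-2 and 13528 clones TRBV16. V beta 5 and V beta 11 are known for their loss in strains that combine the class II molecule I-E with superantigens of endogenous mammary tumour proviruses. Such superantigens bind the side of the Vβ domain whatever peptide the receptor sees, so that developing T cells with that Vβ family are deleted in the thymus. Mice of the C57BL/6 background lack I-E and classically keep both families. TCRβ is rearranged before the CD4 and CD8 double positive stage, and a rearrangement that ends out of frame makes no receptor, so that out-of-frame transcripts are carried along by cells whose other allele is selected.

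The cells were live CD4+ CD25- TCRβ+ cells that did not bind the αGalCer-loaded CD1d tetramer, sorted from spleens of wild type (WT) mice and of Tet2/3 DKO mice of an average age of 25 days, with 2 libraries per genotype. The study's Tet2/3 DKO mice are Tet2-/- Tet3 flx/flx CD4Cre, in which Tet2 is absent from the germline and CD4-Cre, active from the double positive stage on, removes Tet3. TCRβ rearrangement comes before that stage. The methods name C57BL/6 mice, and the labels give no strain, sex or number of mice for single libraries, and the libraries are named as biological replicates. Where replicates do not stand for separate mice, p-values measure only the spread between these samples. The sort was not checked here. The TCRβ tables held 365421 and 454098 reads in 81127 and 100455 clones for WT replicates 1 and 2. They held 409444 and 569678 reads in 96932 and 104017 clones for Tet2/3 DKO replicates 1 and 2. The kit adds no molecular identifiers, so that reads are PCR copies and 95% Wilson confidence intervals cover counting error only. They were at most 0.0532 percentage points wide to either side for a share of reads, 0.133 for a share of clones and 0.811 for a share of out-of-frame clones. Tet2/3 DKO replicate 2 stood apart from the other 3 libraries in all 3 segments, as given below, and counts of edgeR calls are also given with either Tet2/3 DKO library left out.

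The V parts of the 3 segments, from framework region 1 to the end of framework region 3, are shown as the most frequent clone sequence of each segment, with CDR1 and CDR2 in capitals, because the CDR1, CDR2 and framework residues form the face that the V segment itself contributes. In each segment the same sequence was the most frequent in all 4 libraries, and it was carried by 81.7% to 86.5% of the TRBV12-1 clones, 85.3% to 86.7% of the TRBV12-2 clones and 84.1% to 85.4% of the TRBV16 clones of a library.
TRBV12-1: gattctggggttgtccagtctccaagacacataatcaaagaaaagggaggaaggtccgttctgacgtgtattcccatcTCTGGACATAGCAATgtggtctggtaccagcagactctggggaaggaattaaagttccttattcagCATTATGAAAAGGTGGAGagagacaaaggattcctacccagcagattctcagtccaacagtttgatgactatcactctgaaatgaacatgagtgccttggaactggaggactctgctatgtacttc
TRBV12-2: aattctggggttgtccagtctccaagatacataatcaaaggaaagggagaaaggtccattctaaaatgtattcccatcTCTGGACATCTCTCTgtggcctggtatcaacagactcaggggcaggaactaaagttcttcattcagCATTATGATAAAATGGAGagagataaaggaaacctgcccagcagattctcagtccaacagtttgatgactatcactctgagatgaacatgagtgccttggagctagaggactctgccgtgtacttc
TRBV16: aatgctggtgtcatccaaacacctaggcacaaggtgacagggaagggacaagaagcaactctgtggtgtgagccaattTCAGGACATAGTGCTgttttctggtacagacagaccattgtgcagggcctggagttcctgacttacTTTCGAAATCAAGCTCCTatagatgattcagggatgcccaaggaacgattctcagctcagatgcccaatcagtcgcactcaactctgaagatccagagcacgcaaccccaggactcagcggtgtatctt

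The TRBV12-1 and TRBV12-2 sequences are both 270 bases long and differ at 32 bases, an identity of 88.1%. The differences change the amino acid in 16 of 90 codons, among them 2 of the 5 codons of CDR1 and 2 of the 6 codons of CDR2. TRBV16 is 273 bases long. Several V segments were listed for 0 member clones in either WT library and for 1 member clone in each Tet2/3 DKO library. In RefSeq's annotation of GRCm38, the build that the labels name as mm10, the segments lie on chromosome 6: TRBV12-1 (Tcrb-V5.2) at 41113567 to 41114067, TRBV12-2 (Tcrb-V5.1) at 41118864 to 41119364 and TRBV16 (Tcrb-V11) at 41151791 to 41152230. TRBV12-3 (Tcrb-V5.3), annotated as a pseudogene at 41127592 to 41128076, was the first V segment of no clone. At its untrimmed end TRBV12-1 and TRBV12-2 both contribute tgtgccagctctctc to the CDR3, and TRBV16 contributes tgtgcaagcagcttaga, so that the start of the CDR3 is the same in both V beta 5 segments.

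Tet2/3 DKO replicate 2 held the highest share of each of the 3 segments, by reads and by clones, and Tet2/3 DKO replicate 1 lay with the WT libraries for V beta 5. TRBV12-1 took 1.12% and 1.20% of the TCRβ reads in WT replicates 1 and 2 against 1.18% and 2.02% in Tet2/3 DKO replicates 1 and 2. TRBV12-2 took 1.35% and 0.972% in WT against 0.949% and 2.19% in Tet2/3 DKO. TRBV16 took 2.20% and 2.67% in WT against 2.81% and 4.39% in Tet2/3 DKO. Only for TRBV16 did the genotypes not overlap, and there Tet2/3 DKO replicate 1 exceeded WT replicate 2 by less than Tet2/3 DKO replicate 2 did. Both Tet2/3 DKO libraries lay above both WT libraries by reads in 3 of the 24 TRBV segments (12.5%). In libraries made from bulk RNA, more cells with a segment and more TCRβ RNA per such cell cannot be told apart in a share of reads.

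**Figure D1:**
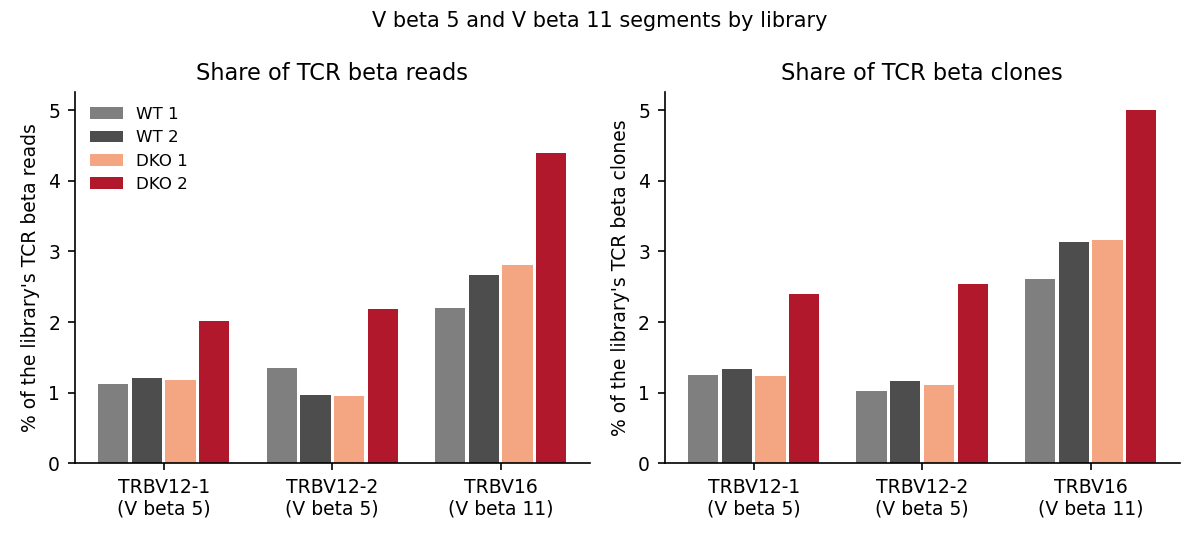
Share of each segment among the TCRβ reads (left) and the TCRβ clones (right) of each library, in percent, with 1 bar per library (WT in greys, Tet2/3 DKO replicate 1 in orange and replicate 2 in red). The bar of Tet2/3 DKO replicate 2 is the highest in all 6 groups of bars, at 2.02% to 4.39% of reads and 2.40% to 5.01% of clones.

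With each clone counted once, so that large clones carry no extra weight, the gap between Tet2/3 DKO replicate 2 and the rest was wider for V beta 5. TRBV12-1 accounted for 1.24% and 1.33% of the clones in WT and for 1.23% and 2.40% in Tet2/3 DKO. TRBV12-2 accounted for 1.03% and 1.17% in WT and for 1.11% and 2.53% in Tet2/3 DKO. TRBV16 accounted for 2.60% and 3.13% in WT and for 3.16% and 5.01% in Tet2/3 DKO. Tet2/3 DKO replicate 2 exceeded the highest of the other 3 libraries 1.81-fold for TRBV12-1, 2.16-fold for TRBV12-2 and 1.59-fold for TRBV16. These were the 3 largest such ratios among the 24 TRBV segments, and 9 of the 24 segments (37.5%) had their highest clone share in that library. By reads the ratios were 1.68 for TRBV12-1, 1.62 for TRBV12-2 and 1.57 for TRBV16, which ranked 2, 3 and 4 behind TRBV15 with 1.69. The fourth ratio by clones, 1.45, was also that of TRBV15, which encodes V beta 12 and lies at 41141211 to 41141658 between the V beta 5 copies and TRBV16. TRBV15, named here after its values were seen, took 5.06%, 5.10%, 4.95% and 7.39% of the clones in the order WT replicates 1 and 2, Tet2/3 DKO replicates 1 and 2. V beta 12 is, like the 3 segments, a classical target of superantigens presented by I-E. Whether superantigens have any bearing on the shares in Tet2/3 DKO replicate 2 was not tested, and the proviruses of the mice are not given.

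Between genotypes the differences in these libraries did not pass the tests. The V beta 5 share of clones was 2.38% ± 0.16 over the WT libraries and 3.64% ± 1.8 over those of Tet2/3 DKO (SD, n = 2, log2 ratio 0.61, two-sided p = 0.667 by exact permutation), and its share of reads gave a log2 ratio of 0.45 (two-sided p = 1 by exact permutation). For V beta 11 the log2 ratio was 0.51 by clones, with 2.87% ± 0.37 in WT and 4.08% ± 1.3 in Tet2/3 DKO, and 0.57 by reads (SD, n = 2, two-sided p = 0.333 by exact permutation for both). With 2 libraries per genotype 0.333 is the smallest p-value that this test can give. After Benjamini-Hochberg adjustment over the 106 genotype comparisons made on these segments the smallest value was 0.785. In both families the SD of the Tet2/3 DKO libraries was larger than the difference between the genotypes by clones.

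All 24 TRBV segments were also tested in 1 quasi-likelihood model of edgeR, and p-values were adjusted over them by the Benjamini-Hochberg method (threshold 0.05). The test called 0 of the 3 members and 0 of the 24 segments (0%), both by reads and by clones, while 3 segments by reads and 0 by clones had an unadjusted p under 0.05. DESeq2 called 1 segment by reads, TRBV4, and 0 by clones. The log2 fold changes of Tet2/3 DKO over WT by reads were 0.46 (standard error 0.27, adjusted p = 0.495 from edgeR) for TRBV12-1, 0.44 (0.36, adjusted p = 0.626) for TRBV12-2 and 0.57 (0.22, adjusted p = 0.369) for TRBV16. By clones they were 0.50, 0.73 and 0.51 in the same order, with adjusted p-values of 0.693, 0.673 and 0.673 from edgeR. In 3 of the 24 segments (12.5%) both Tet2/3 DKO libraries lay above both WT libraries by clones, and of the members this held for TRBV16 only.

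The outcome turned on which Tet2/3 DKO library was kept. Without Tet2/3 DKO replicate 1, all 3 members were called as higher by reads, where 5 of the 24 segments were called in that direction (20.8%), and all 3 by clones, where 4 were (16.7%). The log2 fold changes by clones were then 0.90 for TRBV12-1, 1.20 for TRBV12-2 and 0.80 for TRBV16, with adjusted p-values of 3.3e-07, 3.2e-09 and 1.2e-09 from edgeR. In this fit the lone Tet2/3 DKO library is assumed to vary as the WT libraries do, so that it compares 1 library with 2 others. Without Tet2/3 DKO replicate 2, 0 of 24 segments were called by reads or by clones, and the log2 fold changes by clones were -0.06, 0.01 and 0.14.

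In the order of mean share of reads, TRBV16 was eleventh with 3.02%, below TRBV1 with 3.55% and above TRBV29 with 2.54%. Library by library, TRBV16 took less than TRBV1 in WT and in Tet2/3 DKO replicate 1, and more in Tet2/3 DKO replicate 2, where TRBV1 took 4.15%. TRBV29, in contrast, was lowest in Tet2/3 DKO replicate 2 with 2.10%. TRBV16 took less than TRBV29 in WT replicate 1 (2.20% against 2.86%) and more in each other library. TRBV12-1 with 1.38% and TRBV12-2 with 1.36% followed each other, below TRBV4 with 1.65% and above TRBV19 with 1.24%. The ranges of TRBV12-1, TRBV12-2, TRBV4 and TRBV19 over the 4 libraries overlapped. These are shares of reads, not scaled by length.

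The reading frame set the V beta 5 copies apart from each other. TRBV12-1 took a larger share of the out-of-frame than of the in-frame clones, while TRBV12-2 took like shares of both kinds outside Tet2/3 DKO replicate 2 and TRBV16 was more frequent among in-frame clones. Of the out-of-frame clones, TRBV12-1 made up 4.27% (128 of 2998 clones) and 4.43% (148 of 3343) in WT against 3.96% (137 of 3458) and 3.54% (129 of 3647) in Tet2/3 DKO. Of the in-frame clones it made up 1.13% and 1.23% in WT against 1.14% and 2.38% in Tet2/3 DKO. In each library the Wilson intervals of both shares were apart, in Tet2/3 DKO replicate 2 at 2.28% to 2.47% in frame and 2.98% to 4.19% out of frame.

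TRBV12-2 made up 1.03% and 1.18% of the in-frame clones in WT against 1.11% and 2.60% in Tet2/3 DKO. Its shares of the out-of-frame clones were 1.13%, 1.14%, 1.39% and 1.43% in the same order, on 34 to 52 clones per library. TRBV16 made up 2.64%, 3.20%, 3.19% and 5.12% of the in-frame clones and 1.60%, 1.47%, 2.20% and 2.44% of the out-of-frame clones, on 48 to 89 clones. The excess of Tet2/3 DKO replicate 2 over the highest other library was thus 1.94-fold, 2.20-fold and 1.60-fold for TRBV12-1, TRBV12-2 and TRBV16 among in-frame clones, and 0.799-fold, 1.03-fold and 1.11-fold among out-of-frame clones. For TRBV12-1 the out-of-frame share in that library was the lowest of the 4. For TRBV16 the out-of-frame shares of both Tet2/3 DKO libraries lay above both WT libraries, with a log2 fold change of 0.60 over out-of-frame clones alone (edgeR's adjusted p = 0.112), beside 0.51 over all clones (edgeR's adjusted p = 0.673). This order of out-of-frame shares was not particular to TRBV16. Among the 24 TRBV segments it also held for TRBV12-2 and, outside the members, for TRBV3, TRBV13-1, TRBV13-2 and TRBV17, and for no other.

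**Figure D2:**
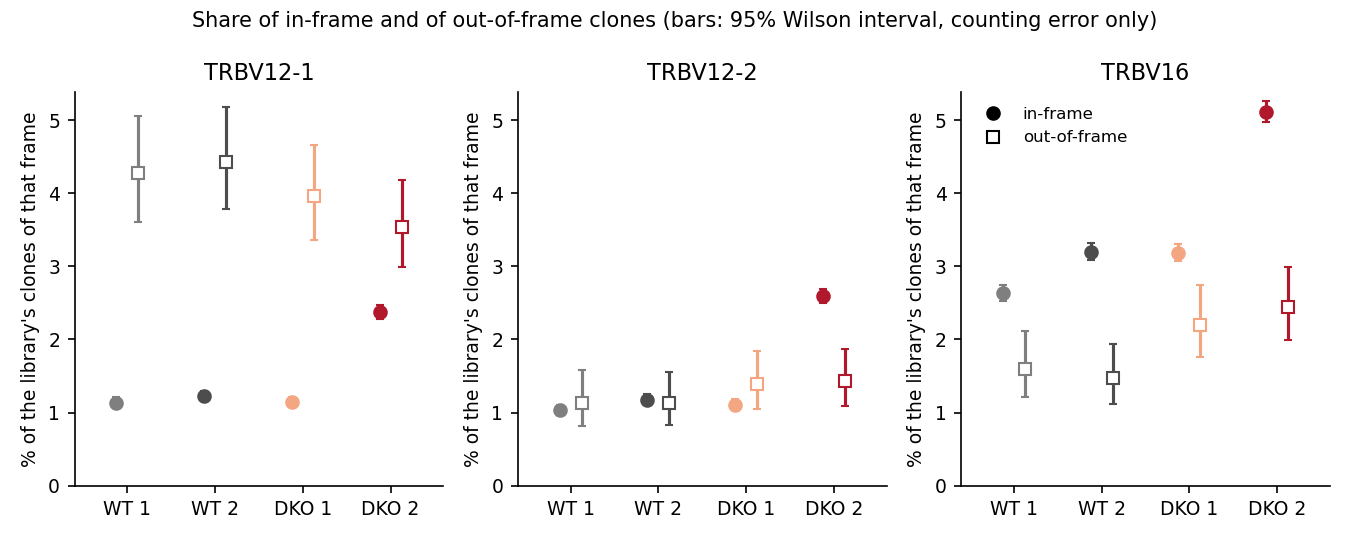
Share of each segment among the in-frame clones (filled circles) and among the out-of-frame clones (open squares) of each library, in percent of the clones of that frame, with 95% Wilson intervals for counting error. Tet2/3 DKO replicate 2 is raised among in-frame clones in all 3 segments, to 2.38%, 2.60% and 5.12%, and its out-of-frame shares are 3.54%, 1.43% and 2.44%. The out-of-frame intervals of this library overlap those of each other library for TRBV12-1 and TRBV12-2, while for TRBV16 they overlap those of WT replicate 1 and Tet2/3 DKO replicate 1 and lie above that of WT replicate 2 (1.47%).

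The log2 ratio of the in-frame share to the out-of-frame share summarises both. For TRBV12-1 the WT libraries had -1.91 and -1.85, and those of Tet2/3 DKO -1.80 and -0.57, below 0 in 4 of 4 libraries (mean -1.53, two-sided p = 0.12 by exact sign-flip over the 4 libraries, the smallest this test can give). For TRBV16 it was 0.72, 1.13, 0.54 and 1.07, above 0 in 4 of 4 libraries (mean 0.86, two-sided p = 0.12 by exact sign-flip). For TRBV12-2 it was -0.14, 0.05, -0.32 and 0.86, with signs that differed between libraries (two-sided p = 0.875 by exact sign-flip). The adjusted value over the 60 comparisons made within libraries was 0.167 at the smallest. TRBV12-1 ranked 21 of 24 segments by this ratio, TRBV12-2 ranked 12 and TRBV16 ranked 5. Between genotypes the ratio differed by 0.64 for V beta 5 (two-sided p = 0.667 by exact permutation) and by -0.12 for V beta 11 (p = 0.667 in the same exact test). The V beta 5 difference was 1.27 without Tet2/3 DKO replicate 1 and 0.01 without Tet2/3 DKO replicate 2, and it was 0.20 by reads. The V beta 11 difference turned to 0.04 with at least 2 reads per clone, to 0.08 without WT replicate 2 and to 0.15 without Tet2/3 DKO replicate 1.

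**Figure D3:**
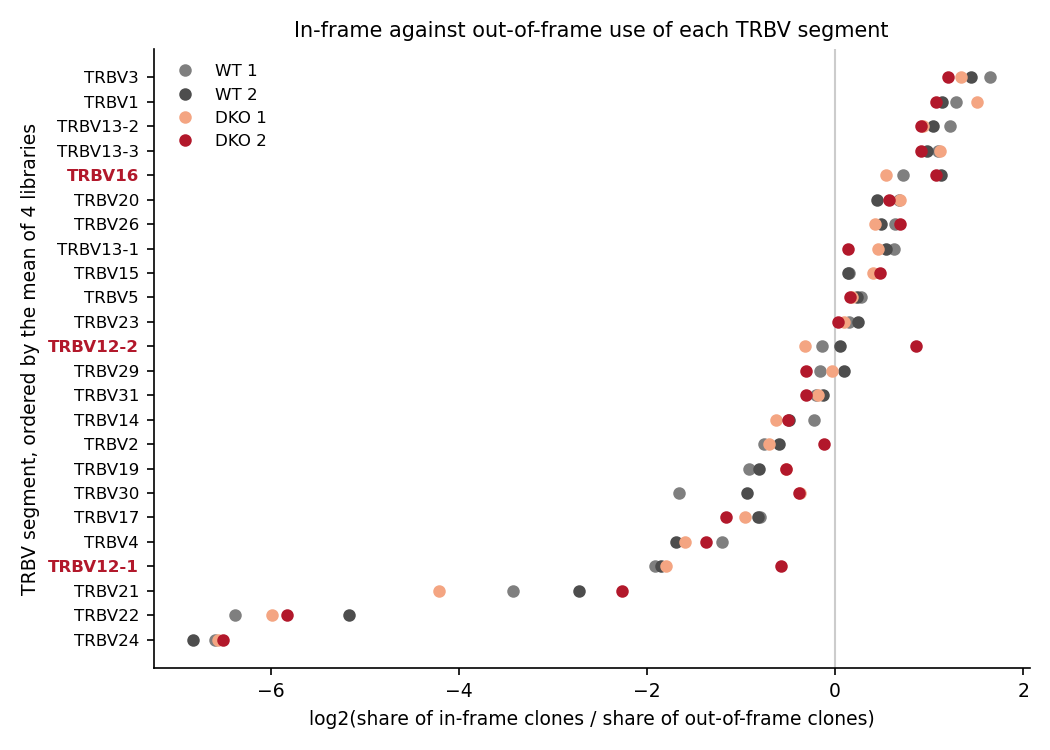
Log2 ratio of the share among in-frame clones to the share among out-of-frame clones for each of the 24 TRBV segments (rows, ordered by their mean) in the 4 libraries (points), with the V beta 5 and V beta 11 segments in bold red. TRBV12-1 and TRBV12-2 in Tet2/3 DKO replicate 2, at -0.57 and 0.86, lie to the right of their other points, while the 4 points of TRBV16 lie between 0.54 and 1.13.

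Seen within each segment, 86.8%, 88.6%, 88.3% and 94.6% of the TRBV12-1 clones with a CDR3 were in frame in the order WT replicates 1 and 2, Tet2/3 DKO replicates 1 and 2. For TRBV12-2 these shares were 95.7%, 96.7%, 95.4% and 97.9%, and for TRBV16 they were 97.6%, 98.4%, 97.4% and 98.1%. All other TRBV segments together had 96.1% to 96.4% of their clones in frame. The difference from that level was -9.32, -7.83, -7.99 and -1.45 percentage points for TRBV12-1, below it in 4 of 4 libraries, and 1.17 to 2.07 percentage points for TRBV16, above it in 4 of 4 (two-sided p = 0.12 by exact sign-flip for either).

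Some TRBV12-1 clones carried a shortened V part of a recurrent length. Of its clones with a CDR3, 6 in WT replicate 1, 6 in WT replicate 2, 2 in Tet2/3 DKO replicate 1 and 16 in Tet2/3 DKO replicate 2 had 77 fewer bases before the CDR3, between 0.168% and 0.642% of them. Over all lengths, V parts shorter by 20 bases or more made up 0.251% to 0.723% of the TRBV12-1 clones, 0.19% to 0.514% of the TRBV12-2 clones and 0.0194% to 0.198% of the TRBV16 clones. Another 0.825% to 1.61% of the TRBV16 clones had no CDR3 listed at all. For TRBV12-1 this was 0.167% to 0.600%, and for TRBV12-2 it was 0.186% to 0.680%. Over all clones of a library it held for 939 of 81127 and 1071 of 100455 in WT. In Tet2/3 DKO it held for 774 of 96932 and 953 of 104017.

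All 12 TRBJ segments found in the libraries were joined to each of the 3 V segments in every library, and TRBJ2-7 was the most frequent partner of each on average. The exception within a library was TRBV12-2 in Tet2/3 DKO replicate 1, where TRBJ2-5 joined 238 and TRBJ2-7 joined 213 of 1026 in-frame clones. Averaged over libraries, TRBJ2-7 was found in 23.0% ± 2.5 of the in-frame TRBV12-1 clones, 22.6% ± 2.0 of the TRBV12-2 clones and 21.8% ± 1.2 of the TRBV16 clones (SD over 4 libraries), against 21.6% ± 0.98 of the clones of all other TRBV segments. TRBJ2-4 and TRBJ2-5 came next in each segment, in an order that differed. TRBJ2-5 joined 19.1% ± 4.2 of the TRBV12-2 clones, 11.9% ± 2.3 of the TRBV12-1 clones and 13.9% ± 1.1 of the TRBV16 clones, against 13.7% ± 0.63 elsewhere. The TRBJ1-1 share, named like the other TRBJ1 shares after the values were seen, was 11.4% ± 0.97 for TRBV16 but 4.84% ± 2.0 for TRBV12-1 and 4.39% ± 1.3 for TRBV12-2, against 8.06% ± 0.53 elsewhere. In 4 of 4 libraries it was above the level of the other segments for TRBV16 and below it for both V beta 5 segments.

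The partners of the V beta 5 copies were different in Tet2/3 DKO replicate 2. TRBV12-2 was joined to TRBJ2-5 in 19.4% and 20.6% of its in-frame clones in WT and in 23.2% in Tet2/3 DKO replicate 1, but in 13.3% in Tet2/3 DKO replicate 2 (342 of 2573 clones, 95% Wilson interval 12% to 14.7%). It was joined to TRBJ2-4 in 11.7%, 9.30% and 9.06% of the clones of the first 3 libraries and in 16.4% in Tet2/3 DKO replicate 2 (423 of 2573 clones, 15.1% to 17.9%). For both partners the interval of Tet2/3 DKO replicate 2 overlapped none of the other 3. This sets 1 library beside the others, and the intervals cover counting error only.

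In TRBV12-1 clones, too, Tet2/3 DKO replicate 2 differed in some partners. TRBJ1-2 joined 8.02%, 8.26% and 9.02% of its in-frame clones in WT replicates 1 and 2 and Tet2/3 DKO replicate 1, and 3.90% in Tet2/3 DKO replicate 2 (92 of 2357 clones, 3.19% to 4.76%). TRBJ2-5 joined 12.8%, 14.0% and 12.3% in the first 3 libraries and 8.61% in Tet2/3 DKO replicate 2. TRBJ1-1 joined 5.38%, 3.23% and 3.32%, and 7.42% in Tet2/3 DKO replicate 2, whose interval overlapped that of WT replicate 1. In the TRBV16 clones TRBJ2-5 joined 12.8%, 15.4%, 13.7% and 13.6%, and TRBJ2-4 joined 14.4%, 13.0%, 12.1% and 12.2%, with Tet2/3 DKO replicate 2 inside the range of the others.

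**Figure D4:**
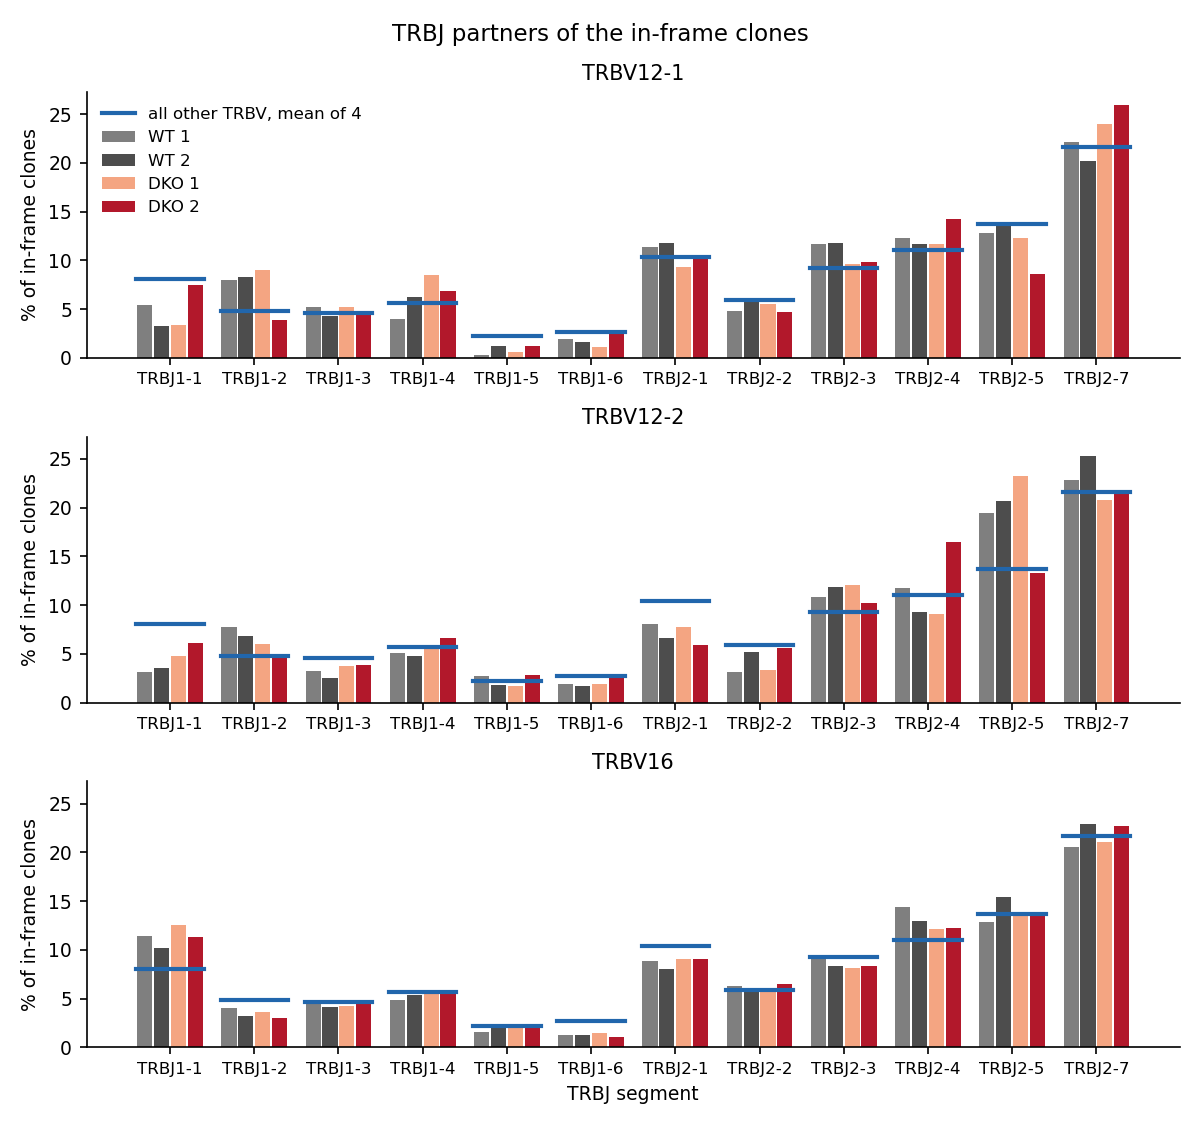
Percent of the in-frame clones of TRBV12-1, TRBV12-2 and TRBV16 joined to each of the 12 TRBJ segments, with 1 bar per library and a blue line at the mean over the 4 libraries for all other TRBV segments. Tet2/3 DKO replicate 2 departs from the other libraries at TRBJ1-2 and TRBJ2-5 of TRBV12-1 (3.90% and 8.61%) and at TRBJ2-4 and TRBJ2-5 of TRBV12-2 (16.4% and 13.3%), and not in TRBV16.

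The mean absolute difference between the TRBJ shares of 2 libraries, over the 12 TRBJ segments, describes this for all partners at once. For TRBV12-2 it was 1.17 to 1.31 percentage points between the WT libraries and Tet2/3 DKO replicate 1, and 2.19 to 2.57 against Tet2/3 DKO replicate 2. For TRBV12-1 it was 0.991 to 1.37 among those 3 libraries and 1.97 to 2.37 against Tet2/3 DKO replicate 2. For TRBV16 it was 0.764 to 1.04 among the 3 and 0.490 to 0.737 against Tet2/3 DKO replicate 2. Over the 22 TRBV segments with at least 100 clones in each library, the ratio of the mean distance to Tet2/3 DKO replicate 2 to the mean distance among the other 3 was largest for TRBV31, with 2.11, followed by TRBV12-2 with 1.94 and TRBV12-1 with 1.74, and it was lowest for TRBV16 with 0.689. The distances include counting error, which is larger in segments with fewer clones. By the same measure between segments, averaged over libraries, the TRBJ partners of TRBV12-1 were most like those of TRBV3 (1.04 percentage points). TRBV13-1, TRBV31 and TRBV13-3 followed, tied at 1.22. The partners of TRBV12-2 were most like those of TRBV13-1 (1.47), followed by TRBV12-1 (1.59) and TRBV14 (1.60). Those of TRBV16 were most like those of TRBV1 and TRBV13-1 (0.852 and 0.984).

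Each of the 36 V-J pairs of the members was tested for genotype within all pairs. By clones, edgeR called 0 of the 36 member pairs and 0 of 269 pairs (0%), and 10 of the 36 pairs were higher in Tet2/3 DKO with an unadjusted p under 0.05, where 15 of all 269 pairs were (5.58%). DESeq2 called 0 pairs by clones and 0 by reads. By reads, edgeR called 0 of 36 and 0 of 285 pairs (0%), and 10 of the 36 were higher with an unadjusted p under 0.05, where 22 of the 285 pairs were (7.72%). Without the 10 most abundant clones of each library, 4 of the 36 member pairs were called by reads, all higher in Tet2/3 DKO, and 7 of the 285 pairs (2.46%). By clones, both Tet2/3 DKO libraries lay above both WT libraries in 17 of the 36 member pairs and in 53 of the 269 pairs (19.7%). Tet2/3 DKO replicate 2 held the highest clone share in 35 of the 36 member pairs and in 98 of the 269 pairs (36.4%), the exception being TRBV12-1 with TRBJ1-2 at 0.0952%, against 0.0924%, 0.107% and 0.107% in the other libraries. The pairs of 1 V segment share its clones and are not independent of each other.

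Among the member pairs TRBV16 with TRBJ1-1 had the smallest unadjusted p by clones, with 0.300% and 0.323% of the clones in WT against 0.392% and 0.562% in Tet2/3 DKO (log2 fold change 0.62 ± 0.18 standard error, edgeR's adjusted p = 0.592). TRBV12-2 with TRBJ1-1 had the largest log2 fold change by clones, 1.45, with 0.0333% and 0.0428% in WT against 0.0547% and 0.154% in Tet2/3 DKO (adjusted p = 0.592 from edgeR). By reads, TRBV12-2 with TRBJ1-5 had both the smallest p and the largest log2 fold change of the member pairs, 2.14, with 0.0213% and 0.0110% in WT against 0.0413% and 0.100% in Tet2/3 DKO (adjusted p = 0.101 from edgeR). In Tet2/3 DKO replicate 1 a single clone of 99 reads made 0.0242% of that 0.0413%. By clones this pair had 0.0284% and 0.0219% in WT against 0.0217% and 0.0721% in Tet2/3 DKO, so that the genotypes overlapped (log2 fold change 0.91, adjusted p = 0.592 from edgeR). Without Tet2/3 DKO replicate 1, 32 of the 36 member pairs were called as higher by clones, where 51 of 266 pairs were (19.2%), and 15 of 36 by reads, where 34 of 284 pairs were (12%). Without Tet2/3 DKO replicate 2, 0 member pairs and 0 of all pairs were called by either count.

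**Figure D5:**
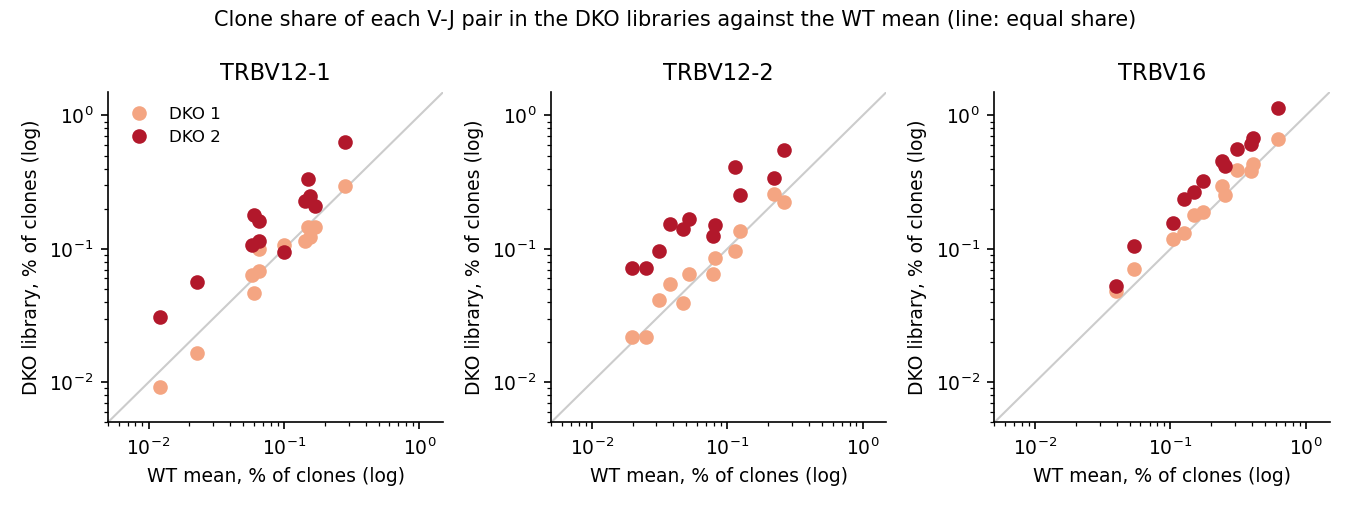
Percent of the clones of a Tet2/3 DKO library that carry a V-J pair, against the mean of the WT libraries, on log axes, with 1 point per TRBJ partner and library and a grey line at equal shares. The points of Tet2/3 DKO replicate 2 (red) lie above the line for all pairs but TRBV12-1 with TRBJ1-2, and those of replicate 1 (orange) scatter about it for V beta 5.

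The junctions of the members had fewer bases counted as inserted, and more often no listed D segment, than those of the other segments. Bases assigned to no V, D or J segment were counted as inserted, with palindromic bases counted with V. Where no D segment was listed, all bases between V and J were counted. The count therefore depends on the D call and on the trimming of V, and how far was not tested. In-frame TRBV12-1 clones had a mean of 2.69 and 2.75 inserted bases in WT against 2.67 and 2.52 in Tet2/3 DKO, and TRBV12-2 clones had 2.62, 2.51, 2.34 and 2.45. For TRBV16 the means were 2.90, 2.85, 2.81 and 2.70, and for all other TRBV segments they were 2.93, 2.94, 2.89 and 2.73. The mean difference from the other segments was -0.21 bases for TRBV12-1, -0.39 for TRBV12-2 and -0.056 for TRBV16, below 0 in 4 of 4 libraries for each (two-sided p = 0.12 by exact sign-flip for each, 0.167 after adjustment). Junctions without any inserted base made up 19.7% to 20.4% of the TRBV12-1 clones, 20.8% to 26.5% of the TRBV12-2 clones and 16.7% to 18.9% of the TRBV16 clones, against 15.2% to 17.4% elsewhere. No D segment was listed for 32.2% to 39.1% of the TRBV12-1 clones, 34.6% to 39.4% of the TRBV12-2 clones and 31.5% to 34.4% of the TRBV16 clones, against 27.1% to 27.6% elsewhere.

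The V end of the V beta 5 segments was trimmed less than that of TRBV16. On average 1.37 to 1.63 bases were lost from TRBV12-1 and 1.08 to 1.41 from TRBV12-2, with the highest value of both in Tet2/3 DKO replicate 2, against 2.78 to 2.85 from TRBV16 and 2.29 to 2.37 from the other segments. Where a D segment was listed, TRBD2 made up 46.0% to 52.3% for TRBV12-1, 43.6% to 47.9% for TRBV12-2 and 38.5% to 41.8% for TRBV16. The other segments had 40.2% to 43.4%, above TRBV16 and below both V beta 5 segments in 4 of 4 libraries (two-sided p = 0.12 by exact sign-flip for each).

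The mean length of the in-frame V beta 5 CDR3s was 13.6 amino acids in all 4 libraries, with a difference of 0.0017 between genotypes (two-sided p = 1 by exact permutation), and that of the V beta 11 CDR3s was also 13.6, with a difference of 0.012 (two-sided p = 1 by exact permutation). Their mean difference from the other segments was -0.11 amino acids for V beta 5 and -0.09 for V beta 11, below 0 in 4 of 4 libraries for each (two-sided p = 0.12 by exact sign-flip). A TRBJ2 segment was used by 75.6% and 77.0% of the in-frame V beta 5 clones in WT and by 74.2% and 73.3% in Tet2/3 DKO (difference -2.53 percentage points, two-sided p = 0.333 by exact permutation). By reads this difference was 3.54 percentage points. All other TRBV segments together had 72.1% and 72.9% in WT against 70.7% and 72.0% in Tet2/3 DKO, counted by clones. Their difference was -1.22 percentage points (two-sided p = 0.333 by exact permutation). For V beta 11 the TRBJ2 shares were 72.1% and 73.7% in WT against 70.1% and 72.4% in Tet2/3 DKO (difference -1.65 percentage points, two-sided p = 0.667 by exact permutation). This difference was -3.32 percentage points by reads, and with 1 library left out it ran from -2.82 without Tet2/3 DKO replicate 2 to -0.863 without WT replicate 2 and -0.476 without Tet2/3 DKO replicate 1.

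The 10 largest clones took a larger part of the TRBV12-2 reads than of the TRBV12-1 reads in 3 of 4 libraries. Tet2/3 DKO replicate 1 was the exception. Against the TRBV16 reads this held in all 4 libraries. A share held by a fixed 10 clones also depends on the number of clones of a segment. TRBV12-2 had 832 to 2634 clones per library and TRBV16 had 2113 to 5210. Whether the order against TRBV16 goes beyond that was not tested. The 10 largest TRBV12-2 clones held 38.5% of the TRBV12-2 reads in WT replicate 1, 11.7% in WT replicate 2, 11.9% in Tet2/3 DKO replicate 1 and 21.0% in Tet2/3 DKO replicate 2. For TRBV12-1 these shares were 9.36% and 4.73% in WT against 12.6% and 13.6% in Tet2/3 DKO, and for TRBV16 they were 7.89%, 4.84%, 5.06% and 7.41%. WT replicate 1 was the library in which TRBV12-2 took 1.35% of reads but 1.03% of clones, and a TRBV12-2 clone there held 5.92 reads on average, against 3.61 to 4.73 in the other libraries. The effective number of TRBV12-2 clones, computed as the exponential of the Shannon entropy over read shares, was 210 in WT replicate 1 and 748, 695 and 938 in the other libraries. For V beta 5 as a whole the share of reads in the 10 largest clones gave a log2 ratio of -0.26 between genotypes (two-sided p = 1 by exact permutation), which was 1.08 without WT replicate 1. For V beta 11 it was -0.03 (p = 1 in the same exact test), and it was 0.37 without WT replicate 1, 0.22 without Tet2/3 DKO replicate 1, -0.34 without WT replicate 2 and -0.33 without Tet2/3 DKO replicate 2.

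The largest clones of the V beta 5 segments are shown by the nucleotide sequence of their CDR3, with the bases that were assigned to no V, D or J segment in capitals (palindromic bases are counted with V). The WT replicate 1 clone of TRBV12-2 with TRBJ1-2 held 663 reads, 13.5% of the TRBV12-2 reads and 0.181% of the library, and was the fifth largest clone of the library. The Tet2/3 DKO replicate 2 clone of TRBV12-2 with TRBJ2-3 held 933 reads, 7.48% of the TRBV12-2 reads, and ranked 14. The Tet2/3 DKO replicate 1 clone of TRBV12-1 with TRBJ2-3 held 370 reads, 7.64% of the TRBV12-1 reads, and ranked 8. In Tet2/3 DKO replicate 2 the largest TRBV12-1 clone, with TRBJ2-4 and 278 reads, was out of frame, with a CDR3 of 40 bases. Each of the 4 CDR3s was found in 1 library only.
TRBV12-2 TRBJ1-2, WT replicate 1: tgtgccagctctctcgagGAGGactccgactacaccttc
TRBV12-2 TRBJ2-3, Tet2/3 DKO replicate 2: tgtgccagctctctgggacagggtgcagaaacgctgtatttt
TRBV12-1 TRBJ2-3, Tet2/3 DKO replicate 1: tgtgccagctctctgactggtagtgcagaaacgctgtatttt
TRBV12-1 TRBJ2-4, Tet2/3 DKO replicate 2: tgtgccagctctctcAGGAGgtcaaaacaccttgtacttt

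The largest clone of each segment in the other libraries held at most 301 reads. For TRBV12-1 they held 175 reads in WT replicate 1 and 42 in WT replicate 2, for TRBV12-2 they held 142 reads in WT replicate 2 and 99 in Tet2/3 DKO replicate 1, and for TRBV16 they held 177 and 160 reads in the WT libraries against 131 and 301 in the Tet2/3 DKO libraries. Of the 1000 largest clones of a library, 55 and 46 in the WT libraries against 47 and 76 in the Tet2/3 DKO libraries carried a member segment. These are 5.5%, 4.6%, 4.7% and 7.6%, beside 4.87%, 5.63%, 5.50% and 9.94% of all clones. Of the 100 largest clones, 7 and 2 in the WT libraries against 7 and 7 in the Tet2/3 DKO libraries carried one. The members thus took a smaller share of the large clones than of all clones at both sizes in WT replicate 2 and Tet2/3 DKO replicate 2 and a larger one in WT replicate 1, while in Tet2/3 DKO replicate 1 the share was smaller among the 1000 and larger among the 100 largest. These shares were not tested. Among the 10 largest clones there was 1 V beta 5 clone in WT replicate 1, 1 in Tet2/3 DKO replicate 1 and 0 in the other libraries.

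Few CDR3s recurred in all 4 libraries. With V segment, J segment and CDR3 nucleotides all the same, 2 in-frame TRBV12-1 joints, 3 TRBV12-2 joints and 17 TRBV16 joints were found in every library, out of 2039, 2337 and 4657 distinct ones in Tet2/3 DKO replicate 2. Of the distinct joints of a library these were 0.0981% to 0.252% for TRBV12-1, 0.128% to 0.405% for TRBV12-2 and 0.365% to 0.896% for TRBV16. For all other TRBV segments together, 614 joints were found in every library, which were 0.963% of the distinct ones in WT replicate 1 and 0.795% in WT replicate 2. The difference was not tested. Between 2 libraries, 14 to 36 joints of TRBV12-1, 15 to 48 of TRBV12-2 and 73 to 173 of TRBV16 were shared. The joints found in all 4 libraries are shown to set beside the clones above that were found in 1 library, all of them for V beta 5 and the 3 with the most reads for TRBV16. The V beta 5 joints held 0 to 3 inserted bases, again in capitals, and the TRBV16 joints shown held 0 to 1. The first TRBV16 joint held 58, 31, 11 and 95 reads in the order WT replicates 1 and 2, Tet2/3 DKO replicates 1 and 2. The second held 17, 44, 16 and 59 reads, the third 21, 12, 14 and 26 reads, and none of the V beta 5 joints held more than 12 reads in a library.
TRBV16 TRBJ2-4, first: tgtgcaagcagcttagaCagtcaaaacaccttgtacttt
TRBV16 TRBJ2-4, second: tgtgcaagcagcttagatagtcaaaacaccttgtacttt
TRBV16 TRBJ2-7: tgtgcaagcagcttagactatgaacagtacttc
TRBV12-2 TRBJ2-5: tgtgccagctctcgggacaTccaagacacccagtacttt
TRBV12-2 TRBJ1-2: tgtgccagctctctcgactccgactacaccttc
TRBV12-2 TRBJ1-3: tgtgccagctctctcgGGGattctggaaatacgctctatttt
TRBV12-1 TRBJ1-3: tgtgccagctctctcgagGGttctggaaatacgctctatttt
TRBV12-1 TRBJ2-3: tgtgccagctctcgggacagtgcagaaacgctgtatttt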

How the data were processed

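TCRβ libraries of splenic CD4 T cells (2 WT, 2 Tet2/3 DKO) were analysed. The authors made them from total RNA with a 5' RACE kit (SMARTer mouse TCR a/b profiling) and sequenced them on a MiSeq. Adapters were removed with fastp 0.21.0, and MiXCR 4.7.0 then built the clones, while the labels name mm10 as genome build. Per clone, the authors deposited a read count and the fraction that this count makes of its table. This deposited fraction equalled the share computed from the counts in every table and was not used further. TCRα tables were not used here. Clones differ over the whole variable region and not in the CDR3 alone, so that PCR or sequencing errors can raise their number. Between 26.1% and 27.0% of clones had 1 read. In frame means a CDR3 length divisible by 3 and no stop codon.

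The members, lists and tests were chosen with earlier results of these data known. Counts per segment and per V-J pair were tested with edgeR 4.0.16 (R 4.3.3, quasi-likelihood, scaled by the library total, at least 10 counts in all, Benjamini-Hochberg threshold 0.05), with DESeq2 1.42.0 as an alternative. The test was checked on simulated data in which both libraries of a genotype shared each change. That check does not cover a change in a single library. Alternatives were other sets of clones, equal reads per library, TMM, no filter, the replicate number as a block, and each library left out. Single values were compared by exact permutation over the 6 assignments of the libraries, or, against the other TRBV segments, by exact sign flips over the 4 libraries (scipy 1.17.1). Named are the 3 members, for each the 3 TRBJ partners with the largest mean share and any pair past the threshold, the 2 other segments with the most similar TRBJ partners, the neighbours in mean read share, the largest clone of each library and up to 3 CDR3s found in all 4 libraries. TRBV15, the TRBJ1 partners and the pairs with the smallest p or largest fold change were chosen after their values were seen. So were the segments named for a tie in TRBJ partners or for the order of their out-of-frame shares. V parts and CDR3s are copied from the clone tables, and places come from RefSeq's GRCm38.p6 annotation.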

Additional observations from a re-analysis of the deposited data

How the results depend on the processing

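Of 124 values recomputed under alternatives that kept all 4 libraries (other sets and definitions of clones, weighting, depth, normalization, filter, test and replicate block), 114 kept their direction and their side of the threshold or their count. Counted by reads in place of clones, the V beta 5 differences between genotypes turned to -0.0254 amino acids for the CDR3 length and to 3.54 percentage points for the TRBJ2 share. With at least 2 reads per clone, they turned to -0.0023 amino acids for the V beta 5 CDR3 length, to 0.0571 percentage points for the V beta 11 in-frame share and to 0.037 for the V beta 11 log2 in-frame over out-of-frame ratio. DESeq2 called 1 TRBV segment by reads, which was no member, and 7 V-J pairs by reads (2.46% of 285), 4 of them among the 36 member pairs (11.1%) and higher in Tet2/3 DKO, were called without the 10 most abundant clones of each library. With the replicate block, 2 V-J pairs by reads and 7 by clones were called against 0 without it, and 0 TRBV segments. All 7 by clones (19.4% of 36, against 2.6% of 269) and 1 of the 2 by reads (2.78% of 36, against 0.702% of 285) were member pairs, higher in Tet2/3 DKO. The replicate numbers are not known to pair the libraries: same-numbered libraries deviated from their group means with a correlation of 0.18 by reads and 0.23 by clones over segments, with only 2 pairs. With only out-of-frame clones, an alternative chosen after seeing the data, the TRBV12-1 log2 fold change by clones was -0.22. The cause of these changes was not tested. Leaving out each library in turn, the log2 ratio of the V beta 5 share ran from -0.12 to 0.86 by reads and from -0.024 to 1.05 by clones, and that of the reads in its 10 largest clones from -0.94 to 1.08 (without WT replicates 2 and 1). The log2 ratio of the V beta 11 share ran from 0.21 to 0.85 by reads and from 0.14 to 0.81 by clones. It was lowest without Tet2/3 DKO replicate 2 and highest without Tet2/3 DKO replicate 1. For V beta 11 the in-frame share ran from -0.582 to 0.187 percentage points, the log2 in-frame over out-of-frame ratio from -0.39 to 0.15 and the log2 ratio of reads in the 10 largest clones from -0.34 to 0.37. CDR3 length differences ran from -0.0195 to 0.0228 (V beta 5) and from -0.0045 to 0.0281 amino acids (V beta 11). Calls ran from 0 to 8 TRBV segments by reads, 0 to 10 by clones, 0 to 50 V-J pairs by reads and 0 to 76 by clones, the highest always without Tet2/3 DKO replicate 1, and 4 pairs by reads were called without WT replicate 2. The log2 fold change ran from -0.062 to 0.90 for TRBV12-1 by clones and from -0.29 to 0.92 for TRBV12-2 by reads, lowest without Tet2/3 DKO replicate 2 and highest without Tet2/3 DKO replicate 1. Of 96 such values, 71 kept direction and side. Each genotype has 2 libraries, no molecular identifiers were used, and out-of-frame shares rest on 34 to 148 clones per segment and library.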
